A study of Homo sapiens with 6 samples.

Results

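PPME1 encodes protein phosphatase methylesterase 1, and the PPP2C and PPP2R genes encode the catalytic, scaffold and regulatory subunits of protein phosphatase 2A (PP2A). PPME1 was chosen by its measured values, because its level was much higher in cells grown at 25 kPa than at 2 kPa, and the subunit genes were taken by symbol, as every row that starts with PPP2C or PPP2R. This gave 9 genes (PPME1 and 8 subunit genes) of the 8529 genes in the table. The cells were SW480, a human colorectal adenocarcinoma line labelled as wild type, grown for 72 h in wells coated with hydrogel of 2 kPa (3 libraries) or 25 kPa (3 libraries). No other genotype or agent differed between the groups. The design asks which genes respond to the stiffness of the matrix. The labels call the wells triplicates of one line and do not say that they came from separate cultures, so the spread between libraries may be technical.

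PP2A is one of the most abundant serine/threonine phosphatases of the cell. A catalytic subunit sits on a scaffold subunit, and an exchangeable regulatory (B) subunit joins them and directs the enzyme to its substrates. The last leucine of the catalytic subunit can carry a methyl group, which favours the binding of some B subunits. LCMT1 adds that methyl group and PPME1 removes it. PPME1 also binds and stabilises inactive PP2A, and PP2A is known as a brake on growth signalling in cancer cells, colorectal ones included.

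Both sides of this reaction are given as coding sequence from the GENCODE annotation of GRCh38, since they are what PPME1 acts with and acts on. For PPME1, the bases lie at chr11:74230300-74230326 on the forward strand, in an exon, and the capitals mark codon 156 of the longest coding transcript (400 codons), the serine of the only Gly-X-Ser-X-Gly stretch in that protein and known as its catalytic residue. For PPP2CA, the bases are the last 30 of the coding sequence before the stop codon, at chr5:134197775-134197804 on the reverse strand, and the capitals mark codon 309, the leucine that is methylated.

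PPME1 serine: ctgattggacatAGCatgggtggtgct

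PPP2CA tail: gttactcgtcgtaccccagactacttcCTG

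PPME1 lies on chromosome 11 of GRCh38 from 74171099 to 74254703 on the forward strand. Its level is given in FPKM as the authors deposited it, a fragment count scaled to the length of the gene's exons and to the size of the library. PPME1 had 38.04, 49.19 and 41.19 FPKM in the 2 kPa libraries and 162.59, 166.37 and 154.33 FPKM in the 25 kPa libraries. Every 25 kPa library lay above every 2 kPa library, and the highest 2 kPa value was still far from the lowest 25 kPa value. The 2 kPa mean was 42.8 ± 5.75 FPKM (SD, n = 3). The 25 kPa mean was 161 ± 6.16 FPKM (SD, n = 3), 3.76-fold higher. On the log2(FPKM + 1) scale, on which all changes below are given and which understates the change of low genes, the difference was 1.90, the 4th largest increase in the table. PPME1 was picked for this contrast, so these values are a description and carry no test. The difference was 1.82 without 2 kPa replicate 1 and 2.00 without 2 kPa replicate 2, the lowest and highest values with 1 library left out. The libraries also fell into 3 with a lower and 3 with a higher median FPKM over all genes, across both groups. The difference was 2.04 among the former and 1.67 among the latter. Each of these set 2 libraries of one stiffness against 1 of the other, so neither is a replicated comparison.

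**Figure D1:**
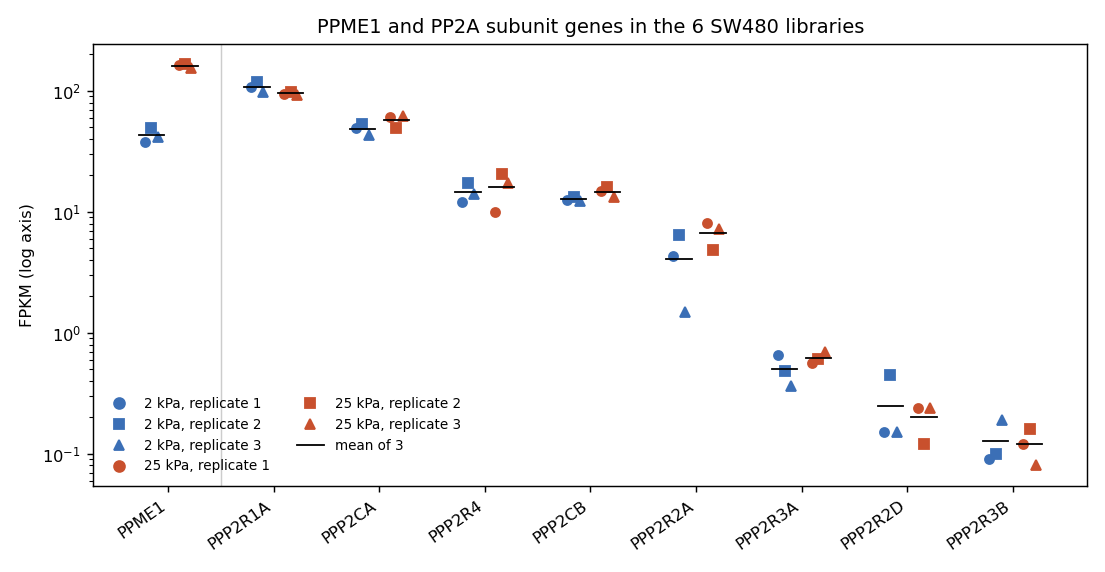
FPKM of PPME1 and the 8 PP2A subunit genes in each library (log axis), with 2 kPa libraries in blue, 25 kPa libraries in red, a symbol for each replicate number and a bar at the mean of 3. PPME1 averages 42.8 FPKM at 2 kPa, below the scaffold gene PPP2R1A, and 161 FPKM at 25 kPa, above it, while the libraries of the 2 groups overlap for each subunit gene.

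At 2 kPa the level of PPME1 (38.04 to 49.19 FPKM) overlapped that of the catalytic subunit gene PPP2CA (42.92 to 53.28 FPKM), with 2 of its 3 values under the lowest of PPP2CA, and below that of the scaffold gene PPP2R1A (97.99 to 117.49 FPKM). At 25 kPa its lowest library (154.33 FPKM) stood above the highest library of PPP2R1A (98 FPKM). FPKM are per length, so levels of different genes can be set side by side, but which transcripts each entry covers is not stated in the sources used here. GAPDH, which cells use at a high level, was listed at only 0.32 to 3.35 FPKM, and PPP6C at 0.08 to 0.43 FPKM, so a low entry is not evidence of a silent gene.

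None of the 8 subunit genes passed the test between stiffness levels (limma on all 8529 genes, Benjamini-Hochberg adjusted p under 0.05), against 0.117% of all genes (10 genes). At an unadjusted p under 0.05 the count was also 0 of 8, against 10.2% of all genes. The libraries of the groups overlapped for all 8 subunit genes, and they did not overlap for 16% of all genes. With only 8 genes, counts of 0 do not set the subunit genes apart from these shares. The mean was higher at 25 kPa for 5 subunit genes and lower for 3. Their median log2 change was 0.10, beside 0.05 over all genes. The lowest adjusted p among them was 0.579, for PPP2R2A. Of the 8 genes, 3 had a mean under 1 FPKM.

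The catalytic subunits remove phosphate from serine and threonine and are encoded by PPP2CA (alpha) and PPP2CB (beta). PPP2CA had 49.72, 53.28 and 42.92 FPKM at 2 kPa and 60.5, 49.47 and 61.67 FPKM at 25 kPa. Replicates 1 and 3 at 25 kPa were above every 2 kPa library, and replicate 2 fell inside the 2 kPa range. The log2 change was 0.23 with a 95% interval of −0.07 to 0.53 (limma adjusted p = 0.605). PPP2CB had 12.49, 13.35 and 12.34 FPKM at 2 kPa and 14.83, 15.91 and 13.2 FPKM at 25 kPa. Here only replicate 3 at 25 kPa, at 13.2 FPKM, lay under the highest 2 kPa library. The log2 change was 0.19, with an interval of −0.11 to 0.48 (limma adjusted p = 0.690). Both log2 changes were smaller with FPKM rescaled to equal library sums, 0.106 for PPP2CA and 0.0685 for PPP2CB, and that of PPP2CA was 0.143 without 2 kPa replicate 3. The proteins are near-identical, but 0 windows of 50 bases were shared between the longest coding transcript of PPP2CA and the transcripts of PPP2CB. Of the windows of the PPP2CA transcript, 9.5% occurred in transcripts of other genes, against 3.32% for PPP2CB, so the level of PPP2CA is the less certain.

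PPP2R1A encodes the alpha scaffold, on which the other subunits assemble. It had 107.14, 117.49 and 97.99 FPKM at 2 kPa and 94.86, 98 and 92.97 FPKM at 25 kPa. The ranges met at a single point, with 25 kPa replicate 2 just above 2 kPa replicate 3. The log2 change was −0.17, with an interval of −0.42 to 0.08 (limma adjusted p = 0.672). It was −0.10 without 2 kPa replicate 2, −0.29 with FPKM rescaled to equal library sums and −0.30 after quantile normalisation. An antisense transcript covers 9.55% of the exon bases of PPP2R1A, and whether the authors' counting used strand is not stated in the sources used here.

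PPP2R2A (B55 alpha) directs PP2A to substrates of cyclin-dependent kinases at the end of mitosis. It had 4.34, 6.48 and 1.48 FPKM at 2 kPa and 8.05, 4.87 and 7.27 FPKM at 25 kPa. This was the largest log2 change among the subunit genes, 0.72, and also the widest interval, −0.16 to 1.59. Its values also split by the median FPKM of the libraries. That split was chosen after seeing the data, and how many of all genes split this way was not counted. The 3 libraries with a higher median (2.69 to 2.83, namely 2 kPa replicate 2 and 25 kPa replicates 1 and 3) had 6.48 to 8.05 FPKM of PPP2R2A, and the 3 with a lower median (2.23 to 2.45) had 1.48 to 4.87. Within the lower-median libraries its log2 change was 0.69 and within the higher-median libraries 0.21, each with only 1 library on one side. With that split as a block in the fit, chosen after seeing the data, it was 0.45 (limma adjusted p = 0.554). Leaving out 2 kPa replicate 3 brought it to 0.27, while without 2 kPa replicate 2 it was 1.06. PPP2R2D, which encodes B55 delta, was listed at only 0.12 to 0.45 FPKM over the 6 libraries.

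PPP2R4, the older symbol for PTPA, encodes the PP2A phosphatase activator, which helps to turn new catalytic subunits into active enzyme. It had 12.05, 17.18 and 14.13 FPKM at 2 kPa and 9.91, 20.4 and 17.41 FPKM at 25 kPa. The 25 kPa libraries held both the lowest and the highest value, and the log2 change was 0.09, with an interval of −0.48 to 0.65. It was 0.61 among the lower-median and −0.36 among the higher-median libraries, each with only 1 library on one side. PPP2R3A and PPP2R3B encode B″ subunits, which bind calcium. PPP2R3A was listed between 0.36 and 0.69 FPKM and PPP2R3B between 0.08 and 0.19 FPKM over the 6 libraries. The B56 genes (PPP2R5A to PPP2R5E) and the second scaffold gene PPP2R1B were not among the genes of the table, so they were not analysed here.

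Ordered by level, the subunit genes ran from PPP2R1A and PPP2CA through PPP2R4, PPP2CB and PPP2R2A to PPP2R3A, PPP2R2D and PPP2R3B. The libraries of PPP2R4 (9.91 to 20.4 FPKM) and PPP2CB (12.34 to 15.91 FPKM) overlapped, as did those of PPP2R3A with PPP2R2D and of PPP2R2D with PPP2R3B, so these neighbours in the order are not separated by their spread.

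The means of the catalytic genes were higher and that of the scaffold gene lower at 25 kPa, none of them past the threshold. Their ratio within a library does not depend on how libraries are scaled to each other. The FPKM of PPP2CA and PPP2CB together, divided by that of PPP2R1A, came to 0.581, 0.567 and 0.564 in the 2 kPa libraries and 0.794, 0.667 and 0.805 in the 25 kPa libraries. The groups did not overlap, and the 2 kPa libraries lay close together. The 2 kPa libraries averaged 0.571 ± 0.00887 (SD, n = 3). The 25 kPa libraries averaged 0.756 ± 0.0767 (SD, n = 3), which was 1.32-fold higher. This ratio was chosen after its values were seen, so it is a description without a test. How often ratios of other genes separate the groups was not counted. PPP2CA alone over PPP2R1A came to 0.464, 0.453 and 0.438 at 2 kPa and 0.638, 0.505 and 0.663 at 25 kPa. PPP2CB alone gave 0.117, 0.114 and 0.126 at 2 kPa and 0.156, 0.162 and 0.142 at 25 kPa, also without overlap.

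**Figure D2:**
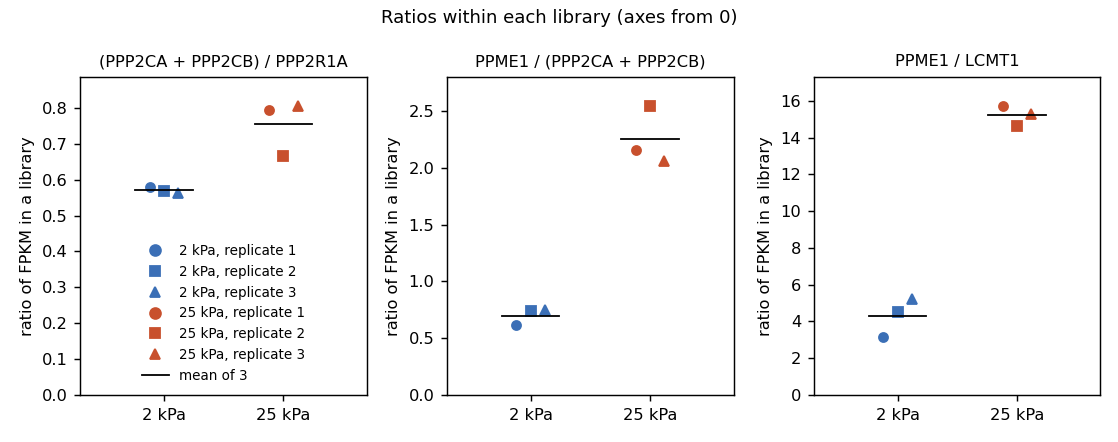
Ratios of FPKM within each library, with axes from 0, 2 kPa libraries in blue, 25 kPa libraries in red and a bar at the mean of 3. The catalytic genes over PPP2R1A average 0.571 at 2 kPa and 0.756 at 25 kPa, and PPME1 over LCMT1 averages 4.30 and 15.2.

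PPME1 works against LCMT1, the methyltransferase, so the levels of both genes were set side by side. LCMT1 had 12.11, 10.9 and 7.87 FPKM at 2 kPa and 10.34, 11.36 and 10.09 FPKM at 25 kPa. The 25 kPa libraries lay inside the range of the 2 kPa libraries, and the log2 change of LCMT1 was 0.06, with an interval of −0.34 to 0.45 (limma adjusted p = 0.953). Its sign was negative with FPKM rescaled to equal library sums and after quantile normalisation. The FPKM of PPME1 over that of LCMT1 was 3.14, 4.51 and 5.23 at 2 kPa and 15.7, 14.6 and 15.3 at 25 kPa. Over the 2 catalytic genes together, PPME1 stood at 0.611, 0.738 and 0.745 at 2 kPa and 2.16, 2.54 and 2.06 at 25 kPa. The FPKM of PPME1 was thus lower than that of the catalytic genes together in each 2 kPa library and higher in each 25 kPa library. Numbers of transcripts cannot be read from this, because which transcripts each entry covers is not stated. These ratios carry the contrast by which PPME1 was chosen and are given without a test. The methylation of PP2A itself was not measured.

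Other genes of the PP2A pathway came from a list of 16 regulators written from general knowledge (inhibitors, chaperones, targeting proteins and the methyltransferase), of which 13 were in the table. The list was chosen with earlier results of these data known, so the counts below describe it and do not test it. None passed the adjusted threshold by limma. At an unadjusted p under 0.05, 6 of the 13 were higher at 25 kPa and 0 lower, against 6.96% of all genes that were higher. The libraries did not overlap, with 25 kPa higher, for the same 6 genes (11.2% of all genes did so), which were SET, ANP32A, TIPRL, BUB1B, SGO1 and MASTL. This was counted on FPKM as deposited, whose library sums ran from 201030 to 263028, and was not recounted on rescaled FPKM. The mean was higher for 12 of the 13, as it was for 59.6% of all genes, and their median log2 change was 0.20, beside 0.05 over all genes.

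**Figure D3:**
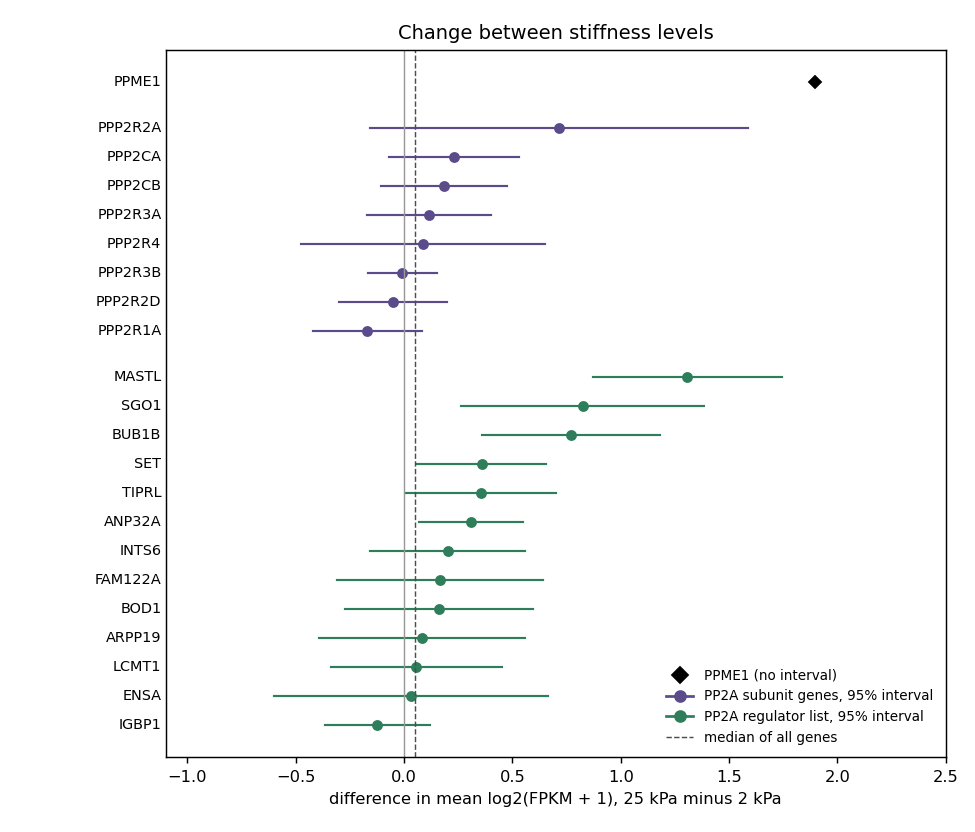
Difference in mean log2(FPKM + 1), 25 kPa minus 2 kPa, for PPME1 (point only), the 8 subunit genes and the 13 regulators, with 95% intervals from limma and a dashed line at the median of all genes (0.05). The intervals of the subunit genes all include 0, and those of 6 regulators lie above it.

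SET and ANP32A encode inhibitor proteins that bind PP2A. SET had 164.47, 129.58 and 160.06 FPKM at 2 kPa and 200.11, 196.18 and 183.57 FPKM at 25 kPa. Each 25 kPa library was above each 2 kPa library, with 2 kPa replicate 2 the lowest. The log2 change was 0.36, with an interval of 0.06 to 0.66 (limma adjusted p = 0.400). ANP32A had 26.27, 25.13 and 24.82 FPKM at 2 kPa and 33.05, 29.66 and 32.56 FPKM at 25 kPa. The 2 kPa libraries were close to each other and all under the 25 kPa libraries, for a log2 change of 0.31 (interval 0.07 to 0.55, limma adjusted p = 0.356). With FPKM rescaled to equal library sums the log2 changes were 0.23 for SET (limma adjusted p = 0.589) and 0.19 for ANP32A (limma adjusted p = 0.855). TIPRL, which binds free catalytic subunits, had 6.85, 7.73 and 7.05 FPKM at 2 kPa and 10.61, 8.4 and 9.57 FPKM at 25 kPa. Its log2 change was 0.35 (interval 0.01 to 0.70, limma adjusted p = 0.476). With FPKM rescaled to equal library sums that of TIPRL was 0.24 (limma adjusted p = 0.878). For SET, 15.5% of the 50-base windows of its transcript occurred in transcripts of other genes, most often those of SETP14. For ANP32A it was 7.11%, so the levels of SET and ANP32A are less certain than that of PPME1, with 0 such windows. IGBP1, another protein that holds free catalytic subunits, had 47.42, 47.82 and 53.92 FPKM at 2 kPa and 43.87, 44.53 and 48.12 FPKM at 25 kPa, the only regulator with a lower mean at 25 kPa.

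MASTL (Greatwall) is a kinase of mitosis that, by phosphorylating ENSA and ARPP19, makes them inhibitors of PP2A bound to B55. MASTL had 0.14, 0.46 and 0.27 FPKM at 2 kPa and 2.48, 1.65 and 2.47 FPKM at 25 kPa. The groups lay far apart, at low levels throughout. The log2 change of 1.31 (interval 0.87 to 1.74) was the largest of the list and just missed the threshold (limma adjusted p = 0.0560). Over the alternative settings its adjusted p ranged from 0.0263 to 0.243. Exons of YME1L1 on the opposite strand cover 12.2% of the exon bases of MASTL. The targets of MASTL stayed within overlapping ranges, with ENSA at 2.63, 2.78 and 2.28 FPKM at 2 kPa and 2.45, 4.22 and 1.67 FPKM at 25 kPa, and ARPP19 at 0.94, 1.27 and 0.52 FPKM against 1.4, 0.9 and 0.74 FPKM.

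BUB1B, a checkpoint protein that recruits PP2A bound to B56 to kinetochores, had 12.32, 9.52 and 8.33 FPKM at 2 kPa and 20.77, 14.76 and 17.94 FPKM at 25 kPa. Its log2 change was 0.77 (interval 0.36 to 1.18, limma adjusted p = 0.192). SGO1 (shugoshin), which protects centromeric cohesin together with PP2A, had 0.19, 0.25 and 0.12 FPKM at 2 kPa and 0.84, 0.55 and 2.24 FPKM at 25 kPa. Its log2 change was 0.82 (limma adjusted p = 0.299), and 0.51 without 25 kPa replicate 3. Exons of SGO1-AS1 on the opposite strand cover 17.7% of the exon bases of SGO1. BUB1B shares 10.2% of its exon bases, and 8.27% of the 50-base windows of its transcript, with BUB1B-PAK6 on the same strand. The 3 mitotic genes MASTL, BUB1B and SGO1 were higher in mean beside other genes of dividing cells. Of 12 cell cycle genes looked for after these values were seen, 9 were in the table, all 9 had a higher mean at 25 kPa (59.6% of all genes) and 5 were higher without overlap between groups (11.2% of all genes), among them CCNB2 (36.42 to 41.01 FPKM at 2 kPa, 57.02 to 69.67 FPKM at 25 kPa). None of the 9 passed the adjusted threshold by limma, and 4 had an unadjusted p under 0.05 (10.2% of all genes). The part of these genes in the result was not tested, and in bulk RNA more cells in division cannot be told apart from more RNA per cell.

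**Figure D4:**
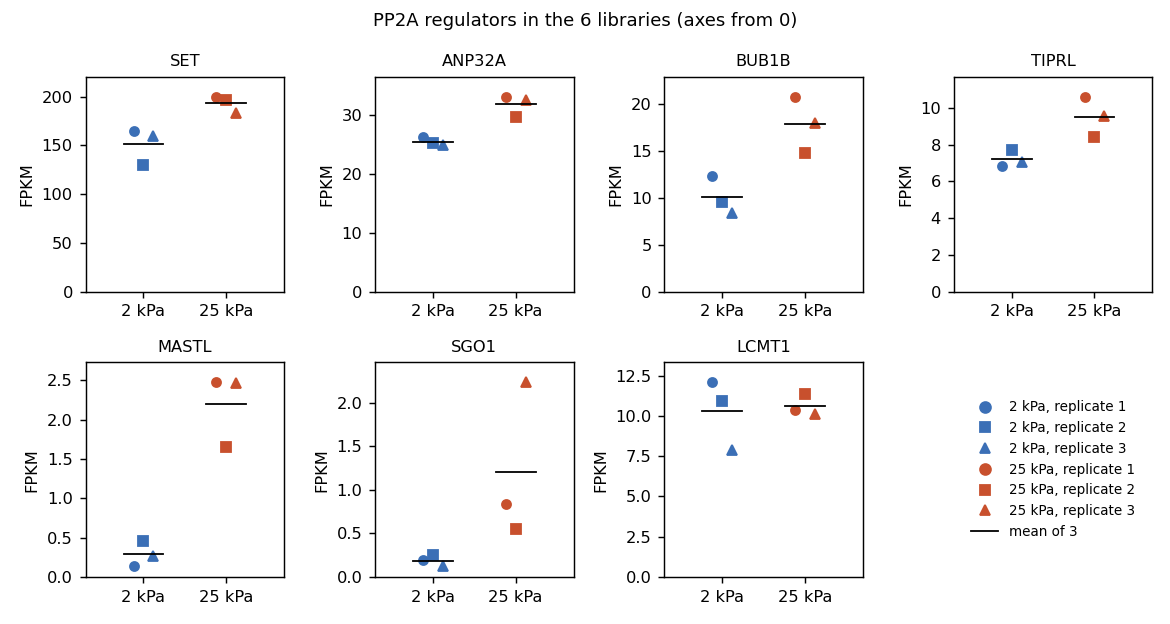
FPKM of the 6 regulators whose groups did not overlap, and of LCMT1, in each library, with axes from 0, 2 kPa in blue, 25 kPa in red and a bar at the mean of 3. The means are 151 and 193 FPKM for SET and 0.290 and 2.20 FPKM for MASTL, while the libraries of LCMT1 overlap.

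The remaining members of the list overlapped between groups. LCMT1 and IGBP1 are given above. FAM122A (now PABIR1), an inhibitor of PP2A bound to B55, had 2.63 to 3.68 FPKM at 2 kPa and 3.37 to 4.04 FPKM at 25 kPa. BOD1, an inhibitor of PP2A at kinetochores, had 0.22 to 0.68 FPKM at 2 kPa and 0.34 to 1.09 FPKM at 25 kPa. INTS6, which brings PP2A to the Integrator complex, had 5.98 to 7.04 FPKM at 2 kPa and 6.82 to 8.04 FPKM at 25 kPa.

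Genes of related phosphatase complexes showed no calls. Of 15 genes of STRIPAK, the complex in which striatins act as PP2A regulatory subunits, 10 were in the table, and their median log2 change was 0.19. Among them FGFR1OP2 (0.65 to 1.86 FPKM at 2 kPa, 1.95 to 2.41 FPKM at 25 kPa) was higher and CTTNBP2NL (1.02 to 1.86 FPKM at 2 kPa, 0.43 to 0.99 FPKM at 25 kPa) lower without overlap. The striatin genes overlapped between groups, with STRN at 0.37 to 0.85 FPKM at 2 kPa and 0.63 to 1.71 FPKM at 25 kPa, and STRN3 at 0.25 to 0.73 and 0.62 to 1.08 FPKM. Of 13 genes of the PP2A-like phosphatases PP4 and PP6, 9 were in the table with a median log2 change of 0.10, and PPP4R2 alone did not overlap (11.73 to 13.78 FPKM at 2 kPa, 13.89 to 18.27 FPKM at 25 kPa). Of 15 genes of PP1, calcineurin and PP5, 7 were in the table, 0 were without overlap, and their median log2 change was −0.06. Over all genes 16% did not overlap, beside 2 of 10, 1 of 9 and 0 of 7 in these 3 lists. In the 3 lists 0 genes had an unadjusted p under 0.05 by limma, against 10.2% of all genes.

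The 5 genes whose centred log2(FPKM + 1) profile over the 6 libraries lay closest to that of PPME1 were MSX1, ANKRD1, MASTL, SAA2 and NR2F2, at Euclidean distances of 0.309, 0.677, 0.815, 0.875 and 0.888. MSX1, a homeobox factor, was nearest, with 37.39, 42.98 and 39.95 FPKM at 2 kPa and 137.71, 155.9 and 117.67 FPKM at 25 kPa. ANKRD1, a known YAP target, had 44.03, 58.93 and 50.67 FPKM at 2 kPa and 128.18, 138.14 and 126.42 FPKM at 25 kPa. NR2F2, a nuclear receptor, had 0.71, 0.77 and 0.52 FPKM at 2 kPa and 3.67, 2.28 and 3.56 FPKM at 25 kPa. MASTL is the only one of the 5 that is also a regulator of PP2A, and its values were low (0.14 to 2.48 FPKM). Its nearness may depend on the 1 added to FPKM before the log. With 0.1 added instead, its log2 change was 2.62, against 1.92 for PPME1, and the profiles were not compared again. The likeness of the 5 profiles is a description over 6 libraries that share the same contrast.

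The nearest genes of the table on each side of PPME1 in the RefSeq gene order (assembly GRCh38.p14) were UCP3, UCP2 and COA4 on one side and PGM2L1, LIPT2 and POLD3 on the other. LIPT2, an enzyme of lipoic acid attachment, had 2.91, 4.29 and 4.19 FPKM at 2 kPa and 6.35, 6.23 and 4.42 FPKM at 25 kPa. It was higher without overlap, as were 11.2% of all genes, with a log2 change of 0.47 (limma adjusted p = 0.521). The other 5 overlapped between groups, with log2 changes from −0.14 for COA4 to 0.72 for UCP2. UCP2, a mitochondrial carrier, had 4.91 to 5.92 FPKM in the 3 libraries with the higher median FPKM and 1.1 to 2.21 FPKM in the others. How many of all genes split this way was not counted. In the annotation, exons of C2CD3 and P4HA3 on the opposite strand cover 1.41% and 2.10% of the exon bases of PPME1. Neither gene was among the genes of the table, so they were not analysed here.

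**Figure D5:**
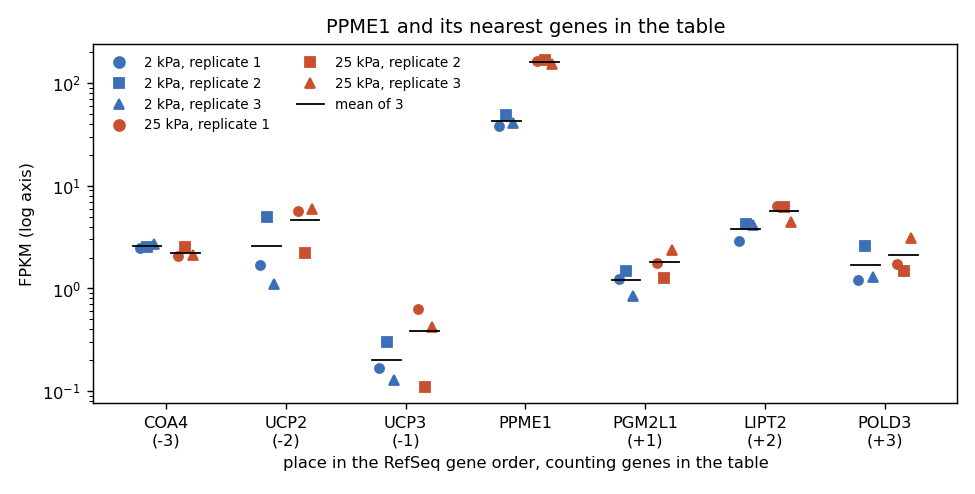
FPKM (log axis) of PPME1 and the 3 nearest genes of the table on each side in the RefSeq gene order, in each library, with 2 kPa in blue, 25 kPa in red and a bar at the mean of 3. PPME1 is at 42.8 and 161 FPKM in the mean, and its neighbours reach at most 6.35 FPKM.

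The identity of the cells was checked on marker genes. Of 10 markers of colorectal epithelium 8 were in the table, led by KRT18 (2611.42 to 3357.69 FPKM), KRT19 (909.39 to 1623.44 FPKM) and EPCAM (64.67 to 100.75 FPKM), whereas the intestinal markers CDX2 (0.07 to 0.79 FPKM) and KRT20 (0.02 to 0.1 FPKM) were near the lower end of the table. The fibroblast markers LUM and PDGFRB, 2 of 6 in the table, summed to at most 1.05 FPKM, and 0 of 4 endothelial and 0 of 5 blood cell markers were in the table. The epithelial markers KRT8 and CDH17 were also missing from it, so a marker without a row is not evidence of a silent gene. The epithelial markers summed to between 4481 and 4811 FPKM at 2 kPa and between 3690 and 4862 FPKM at 25 kPa. The FPKM of a library summed to between 201030 and 263028, and no read counts were given, so the depth is unknown.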

How the data were processed

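RNA of SW480 cells at 2 kPa and 25 kPa was sequenced in 6 libraries, 3 for each stiffness, which were assigned from the sample titles. The authors deposited FPKM per gene symbol with 2 decimals, from 0.01 upwards and without values of 0. The submitters' processing notes name HISAT, StringTie, Bowtie2, RSEM and the build hg18, with no roles. The methods also describe selection of small RNA, although the table lists mRNA, and name DESeq2, which needs counts and was not used here. The depth is unknown. Of the symbols, 11 were written as dates and were tested unnamed. 0 columns were unassigned.

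From the FPKM, log2(FPKM + 1) was compared by limma 3.58.1 in R 4.3.3 (eBayes with trend, two-sided) over all 8529 genes with Benjamini-Hochberg adjustment, a threshold of 0.05 and 95% intervals. Not overlapping means that the 3 values of one group all exceed those of the other. Ratios within libraries were not tested. The fit was tested on simulated data. The members, the lists and the tests were chosen with earlier results of these data known. Named are PPME1, all subunit genes, the pathway genes that passed, did not overlap or act in methylation or inhibition, the 5 nearest profiles and the 3 nearest genes on each side. The remaining regulators, STRN, STRN3, GAPDH, PPP6C, CCNB2 and the cell markers shown were named after their values were seen. Coordinates and exon overlaps come from GENCODE 29 (GRCh38), matched by symbol, with PTPA for PPP2R4.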

Additional observations from a re-analysis of the deposited data

How the results depend on the processing

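The count of subunit genes past the threshold was 0 under every setting tried by limma, at an unadjusted p under 0.05 included. The log2 change of PPME1 ranged from 1.77 to 2.00. The median log2 change of the subunit genes ranged from 0.02, with FPKM rescaled to equal library sums (−0.02 over all genes), to 0.19. The 0.19 came with genes of a mean under 1 FPKM left out, which removes 3 of the 8 (0.08 over all genes kept). For the regulators the count of 0 became 1, MASTL, after quantile normalisation, after median centring (1) and with a block for the split of the libraries by median FPKM, chosen after seeing the data (1), and 6 at an unadjusted p under 0.05. Over all genes the 10 calls became 17 with a pseudocount of 0.1, 15 with 0.01, 6 without a variance trend, 61 with the split as a block and 866 at an unadjusted p under 0.05, and ranged from 3 to 11 with 1 library left out, being 3 without 25 kPa replicate 2, 5 without replicate 1 of either group and 6 without 25 kPa replicate 3. Same-numbered libraries did not deviate together (correlations of 0.11, −0.27 and −0.12). Deviations from a mean of 3 libraries cannot show whether the numbers pair them. With the replicate block, 3 genes were called over all genes, 0 subunit genes and 0 regulators.

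Signs turned only for genes that passed under no setting. With FPKM rescaled to equal library sums, the log2 change was −0.033 for PPP2R4, −0.059 for LCMT1 and −0.065 for ENSA. After quantile normalisation it was −0.014 for LCMT1 and −0.026 for ENSA, and after median centring −0.021 for ENSA. With the split as a block it was 0.013 for PPP2R3B and −0.0028 for ARPP19. With 1 library left out, it ranged from −0.11 to 0.060 for PPP2R2D, −0.034 to 0.032 for PPP2R3B, −0.11 to 0.37 for PPP2R4, −0.11 to 0.17 for LCMT1, −0.025 to 0.30 for BOD1, −0.073 to 0.22 for ARPP19 and −0.23 to 0.25 for ENSA. The cause was not tested. The catalytic to scaffold ratio had a log2 change of 0.40, and 0.35 to 0.49 with 1 library left out.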
